A study of Mus musculus with 6 samples.

Results

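Krt7, Krt8, Krt18 and Krt19 are the keratins of simple epithelium, and their transcripts were read here by 4 probes, 1 per gene, out of 25697 probes for 16593 named genes on the array. The probes were taken by gene symbol, with the older symbols Krt2-8 and Krt1-18 also accepted for Krt8 and Krt18. Keratins are intermediate filament proteins that polymerise as pairs of a type I and a type II chain. Krt7 and Krt8 are type II chains, Krt18 and Krt19 are type I chains, and Krt8 with Krt18 forms the first keratin pair of the mouse embryo, found in trophectoderm and extraembryonic endoderm.

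The cells were mouse embryonic stem cells cultured feeder-free in serum with LIF. Total RNA from 6 samples was read on 6 bead arrays of 1 chip. The groups were Sox17_dox (n = 2), which is 2 independently derived lines with a doxycycline-inducible Sox17 given doxycycline at 1 µg/mL for 5 days, Sox17_untreated (n = 2, the same 2 lines without the drug), KH2_dox (n = 1) and KH2_untreated (n = 1). KH2 is the control line, an embryonic stem cell line built to carry a doxycycline-controlled transactivator. The inducible line whose label has no number is called line 1 here and the other line 2. The protocol gives the dose and time for the inducible cells, and the KH2 samples carry the same protocol. The labels do not say which promoter drives Sox17, whether each line is a single clone, or whether the inducible lines were made in KH2 cells. The labelled cell type was matched by its markers, since all 10 listed embryonic stem cell genes, among them Pou5f1 and Nanog, were detected on at least 2 arrays at a detection p under 0.05, the filter used throughout. Their summed normalised signal was 72930 to 81013 on the inducible arrays and 66911 to 69329 on the KH2 arrays.

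Each array detected 43.7% to 46.5% of its probes, and correlations between arrays over the 12373 tested probes ran from 0.968 to 0.989. Precision is set by how few arrays there are: 2 lines stand against 1 line, and both arrays of a line share its cells, so p-values measure only the spread among these arrays. Sox17, the induced gene, has 2 probes, and neither passed the filter on dim probes. The brighter read 5.61 with doxycycline and 5.26 without it in line 1, 6.47 and 5.60 in line 2, against 5.31 and 5.20 for KH2, and was above detection on 1 array, induced line 2. The other was detected on no array. Sox17 was highest on the doxycycline array of each inducible line, but its level gives only a weak check of the labels, and whether the probes read the introduced copy is not known here.

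The 4 keratin probes were detected on all 6 arrays, with a detection p of 0 on each. They were read from 29 to 56 beads per array, with a bead standard error of 2.71% to 7.9% of the raw signal. A Krt8 pseudogene, Krt8-ps, is annotated in the mouse genome, and since the probe positions are not used here, a share of the Krt8 signal from it was not tested.

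Krt8 and Krt18 lie next to each other on chromosome 15 with no protein-coding gene between them in the RefSeq annotation of GRCm38.p6, and their signals ran most closely together over the arrays. The letters around the annotated starts of this pair are therefore shown, from 250 bases before the start to 20 bases after it, as given by RefSeq on GRCm38.p6. The Krt8 window is chr15:102004323-102004592 on the minus strand and the Krt18 window chr15:102027966-102028235 on the plus strand. Capitals mark matches to any of 5 motifs searched on both strands.
Krt8: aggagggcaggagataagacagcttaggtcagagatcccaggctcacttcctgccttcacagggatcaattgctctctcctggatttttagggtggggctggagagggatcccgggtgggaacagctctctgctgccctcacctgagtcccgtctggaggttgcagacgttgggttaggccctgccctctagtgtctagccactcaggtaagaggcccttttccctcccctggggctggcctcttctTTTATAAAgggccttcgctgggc
Krt18: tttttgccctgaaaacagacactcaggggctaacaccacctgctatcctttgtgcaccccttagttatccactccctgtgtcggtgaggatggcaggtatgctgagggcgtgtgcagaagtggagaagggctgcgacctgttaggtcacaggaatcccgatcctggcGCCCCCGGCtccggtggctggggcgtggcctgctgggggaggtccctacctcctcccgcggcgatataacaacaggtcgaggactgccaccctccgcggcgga
The motifs were a SOX core (ACAAT), AP-1 (TGANTCA), TFAP2 (GCCNNNGGC), SP1 (GGGCGG) and a TATA box (TATAAA). Krt8 held 2 overlapping TATA matches, 1 on each strand, at its annotated start, where 12.9% of 32851 promoter windows of this length held one. Krt18 held 1 TFAP2 match, found in 14.8% of windows. Krt7 held 2 TFAP2 matches and 4 SP1 matches, 1 of which overlapped a TFAP2 match, and SP1 was found in 34.1% of windows. The SOX core (29.1% of windows) and AP-1 (7.23%) were matched in none of these 3 windows. A match describes letters in the window and does not show a binding site.

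The first question was how the inducible lines compared with KH2. All 4 keratins read lower in the inducible lines, with average differences of -1.10 to -1.56 on the log2 scale of normalised signal, or 2.14-fold to 2.95-fold. Every inducible array lay below both KH2 arrays for each of the 4 genes, a pattern held by 11.1% of all tested probes. All 4 were at least 2-fold lower on average, as were 0.671% of tested probes. None of the 4 passed the test, as described below.

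Krt8 read 11.55 on the Sox17_dox array and 11.96 on the Sox17_untreated array of line 1, 12.89 and 12.45 on those of line 2, and 13.93 on the KH2_dox array and 13.25 on the KH2_untreated array. Its raw signal was 3046 and 3771 intensity units in line 1 (doxycycline, then untreated), 7190 and 5332 in line 2, against 18507 and 10314 for the KH2 arrays. Line 1 was lowest, line 2 intermediate and KH2 highest, and no array of one line overlapped those of another.

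Krt18, the type I partner of Krt8, read 9.80 with doxycycline and 10.38 without it in line 1, 11.56 and 11.02 in line 2, against 12.61 and 11.63 for KH2. Its raw signal was 974 and 1326 intensity units in line 1, with 2959 and 2014 for line 2 and 7372 and 3434 for KH2. The order of the arrays was that of Krt8, but induced line 2 lay only 0.07 below untreated KH2, so those neighbours were not separated.

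Krt7, a type II keratin of ducts and of trophoblast, read 7.11 with doxycycline and 7.31 without it in line 1, 8.02 and 7.75 in line 2, against 9.24 and 8.04 for KH2. The order of the 6 arrays was again that of Krt8. Induced line 2 and untreated KH2 were 0.02 apart, and in the authors' normalised values their order was reversed, with 249 intensity units in induced line 2 and 244 in untreated KH2. Only the KH2_dox array stood well above the rest.

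Krt19, a type I keratin of simple and ductal epithelium, read 7.20 with doxycycline and 8.11 without it in line 1, 7.35 and 6.91 in line 2, against 9.42 and 8.49 for KH2. KH2 was highest here too, by at least 0.38 over any inducible array. The inducible lines were ordered differently: without doxycycline, line 1 minus line 2 was 1.19 for Krt19, whereas it was -0.50 for Krt8, -0.65 for Krt18 and -0.44 for Krt7. A lower level in a bulk culture cannot be told apart from fewer cells that carry the transcript.

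**Figure D1:**
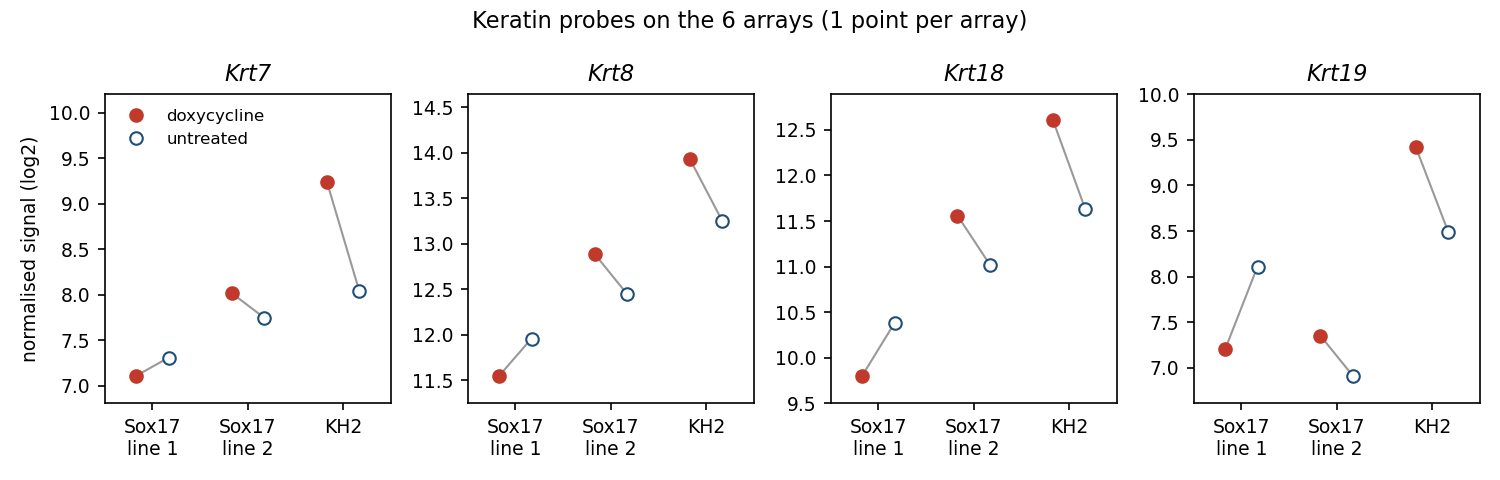
Normalised signal (log2) of each keratin on the 6 arrays, with doxycycline (filled) and untreated (open) points of a line joined. KH2 is highest for all 4 genes; Krt8 runs from 11.55 to 13.93 and Krt19 from 6.91 to 9.42, and the lines' order differs for Krt19.

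The average over the 4 inducible arrays was 7.55 ± 0.41 (SD) for Krt7, 12.21 ± 0.59 for Krt8, 10.69 ± 0.77 for Krt18 and 7.39 ± 0.51 for Krt19, against KH2 means of 8.64, 13.59, 12.12 and 8.95 over 2 arrays. In limma the difference of inducible lines minus KH2 was -1.56 ± 0.33 (SE) for Krt19 (95% interval -2.37 to -0.75, adjusted p = 0.366). It was -1.43 ± 0.49 for Krt18 (-2.60 to -0.26, adjusted p = 0.445). It was -1.38 ± 0.38 for Krt8 (-2.31 to -0.45, adjusted p = 0.408) and -1.10 ± 0.29 for Krt7 (-1.81 to -0.39, adjusted p = 0.396). The intervals are not adjusted for the number of probes. They and the p-values treat the 2 arrays of a line as independent, although both share its cells. Unadjusted p was below the 0.05 threshold for all 4 keratins and for 1262 of 12373 probes. After Benjamini-Hochberg adjustment limma called 0 of 4 keratins and 1 probe in all (0.00808%). Among all tested probes ranked from the lowest difference, Krt19 was number 18, Krt18 number 26, Krt8 number 28 and Krt7 number 58.

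The 1 called probe, named after its value was seen, was that of Eif2s3y, a Y-linked gene for a translation initiation factor subunit. It read 4.94 and 4.70 in line 1 and 4.74 and 4.71 in line 2, where no array detected it, against 6.97 and 7.91 in KH2 (doxycycline first each time), and was at least 3.41-fold lower in the inducible lines (adjusted p = 0.0323 in limma). The probe passed the filter on dim probes only through the KH2 arrays. Over the 13 alternatives in which it was tested its adjusted p from limma ran from 0.0213 to 0.253, and it missed the threshold in 7 of them, among them no background correction, the authors' values and leaving out either KH2 array. Whether this difference between the lines has a part in the keratin difference was not tested. The Krt7 difference was -0.50 without the KH2_dox array and -1.70 without the KH2_untreated array, and the Krt18 difference was -0.94 without the KH2_dox array. The call for Krt19 depended on the untreated array of line 1: without it the difference was -1.86 and the adjusted p from limma 0.0363, with 33 probes called.

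Before induction, Sox17_untreated minus KH2_untreated was -1.04 ± 0.54 (SE, n = 2 arrays against 1) for Krt8, -0.98 ± 0.47 for Krt19, -0.93 ± 0.69 for Krt18 and -0.52 ± 0.42 for Krt7. Each inducible line was below KH2 for each gene, a pattern whose share over all tested probes was not counted for the untreated arrays. For Krt8 the value was -1.29 in line 1 and -0.79 in line 2, and for Krt19 it was -0.38 in line 1 and -1.57 in line 2, so the lines traded places. For Krt18 it was -1.25 in line 1 and -0.60 in line 2, and for Krt7 it was -0.74 in line 1 and -0.30 in line 2. limma called 0 of 4 keratins and 0.0% of probes (348 probes had an unadjusted p below 0.05), and every 95% interval included 0.

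With doxycycline on both sides the differences were larger. Sox17_dox minus KH2_dox was -2.15 ± 0.47 (SE, n = 2 against 1) for Krt19, the 9th lowest of 12373 probes. It was -1.93 ± 0.69 for Krt18, -1.72 ± 0.54 for Krt8 and -1.68 ± 0.42 for Krt7. For Krt19 both lines were alike (-2.22 in line 1 and -2.08 in line 2), while for Krt18 line 1 was at -2.81 and line 2 at -1.05. For Krt8 line 1 was at -2.39 and line 2 at -1.04, and for Krt7 line 1 was at -2.13 and line 2 at -1.22. limma again called 0 of 4 keratins (adjusted p = 0.395 to 0.439) and 0.0% of probes, with 1370 probes at an unadjusted p below 0.05. These comparisons share arrays with the average over both conditions and are not independent of it.

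The second question was how the keratins differed between doxycycline and untreated cells. In KH2, labelled as control cells and not as Sox17-inducible, all 4 read higher with doxycycline: Krt7 by 1.20, Krt18 by 0.98, Krt19 by 0.94 and Krt8 by 0.69. In line 2 all 4 were also higher, by 0.54 for Krt18, 0.44 for Krt8, 0.43 for Krt19 and 0.27 for Krt7. In line 1 all 4 were lower, at -0.91 for Krt19, -0.58 for Krt18, -0.41 for Krt8 and -0.19 for Krt7. This combination of signs was held by 10.7% of all tested probes.

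Each of these values rests on 1 pair of arrays, so no replicate error can be given within a line. The spread over beads, which covers reading error within an array only, gave a standard error of 0.068 to 0.14 for the log2 ratio of raw signals. On that raw scale the KH2 values ran from 0.77 (Krt19) to 1.10 (Krt18), well outside bead error, and the line 1 value of Krt7 was -0.04 with a bead standard error of 0.14, within it. In KH2 only 5 of 12373 tested probes, Krt7 included, had a value as high as that of Krt7, and 71 had one as high as that of Krt18. In line 1, 186 probes were as low as Krt19.

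**Figure D2:**
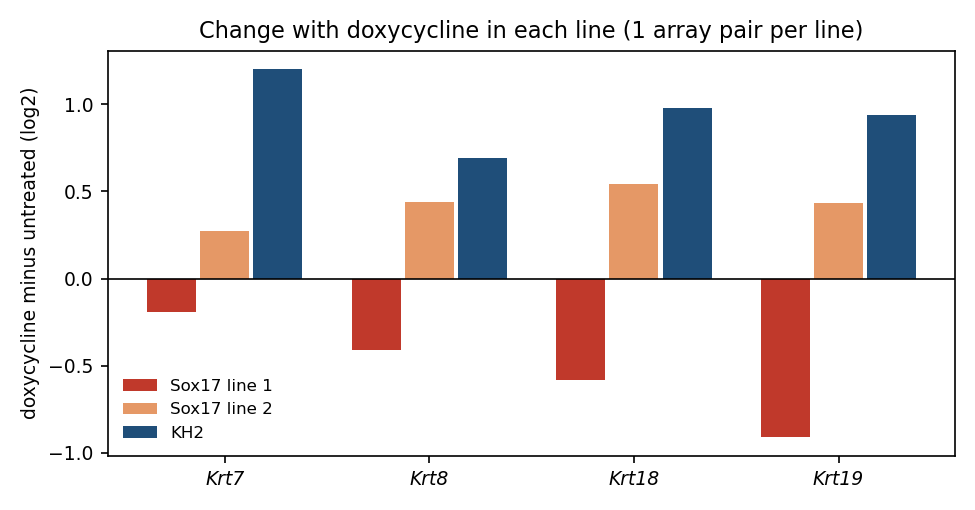
Doxycycline minus untreated signal (log2) of each keratin in line 1, line 2 and KH2, 1 array pair per bar. The KH2 bars lie between 0.69 and 1.20 and the line 2 bars between 0.27 and 0.54, while the line 1 bars lie between -0.91 and -0.19.

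Averaged over both inducible lines, the opposite signs left values near 0. Sox17_dox minus Sox17_untreated was 0.04 ± 0.34 (SE, n = 2 against 2) for Krt7, 0.01 ± 0.44 for Krt8, -0.02 ± 0.56 for Krt18 and -0.24 ± 0.39 for Krt19. The 95% intervals were wide, from -0.78 to 0.86 for Krt7 and from -1.38 to 1.33 for Krt18, so a 2-fold difference in either direction lies within the interval of Krt8, Krt18 and, for a lower level, Krt19. limma called 0 of 4 keratins (adjusted p = 0.974 to 0.998) and 0.0% of probes, with 528 probes at an unadjusted p below 0.05. The fit did not pair the 2 arrays of a line. With line as a block the 4 differences were the same, at an adjusted p in limma of 0.767 to 0.989.

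The response of the inducible lines minus that of KH2 was -1.17 ± 0.67 (SE) for Krt19, -1.16 ± 0.59 for Krt7, -1.0 ± 0.97 for Krt18 and -0.67 ± 0.77 for Krt8. All 4 signs were negative, but no keratin passed this test of the difference (adjusted p = 0.996 each in limma, 0.0% of probes called, 344 with an unadjusted p below 0.05). This fit was unpaired too. Pairing the arrays of a line as a block left the 4 values unchanged, and no keratin passed. The size of the difference depended on which inducible array was used. Without the induced array of line 1 it was -0.71 for Krt7, -1.10 for Krt19 and -0.12 for Krt18, and for Krt8 it came to 0 within rounding. Without that of line 2 it was -1.61 for Krt7, -1.24 for Krt19, -1.89 for Krt18 and -1.35 for Krt8. Krt19 moved most with the untreated arrays, to -0.58 without that of line 1 and to -1.77 without that of line 2. Without the untreated array of line 2 the value was -0.43 for Krt8 and -0.68 for Krt18.

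Over the 3 lines together, doxycycline minus untreated was 0.43 ± 0.46 (SE, n = 3 against 3) for Krt7, 0.31 ± 0.61 for Krt18, 0.24 ± 0.54 for Krt8 and 0.15 ± 0.59 for Krt19. None passed in limma (adjusted p = 0.875 to 0.967, 0.0% of probes called, 760 with an unadjusted p below 0.05). The arrays of a line were not paired here either. With line as a block the adjusted p in limma was 0.433 to 0.856. Without the KH2_dox array all 4 values were negative, from -0.56 for Krt19 to -0.13 for Krt7.

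The keratins shared a profile over the 6 arrays that set Krt19 apart from the other members. Pearson's r, given as a description over 6 arrays that come from 3 lines on 1 chip, was 0.992 between Krt8 and Krt18, 0.964 between Krt7 and Krt18 and 0.959 between Krt7 and Krt8. With Krt19 it was 0.741 for Krt7, 0.726 for Krt8 and 0.675 for Krt18. Among 1677 genes that spanned at least 1 log2 unit, Krt18 was the gene most like Krt8, and Krt8 was number 3 among those most like Krt18, after Tpm2 (r = 0.994), which encodes a tropomyosin, and 1 other.

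The mean profile of the 4 keratins was compared with the 1673 other genes of that span, of which 75 had an r of 0.9 or more. Of the 8 closest, 6 were detected on both sides: Dusp14 (r = 0.984), Tceal5 (0.981), Cldn6 (0.980), Wnt6 (0.978), Efnb1 (0.976) and Gal3st1 (0.975). Cldn6 encodes a claudin of epithelial tight junctions, and Wnt6 encodes a secreted Wnt ligand. Wnt6 read 5.35 and 6.15 in line 1 and 6.18 and 6.15 in line 2, against 7.58 and 6.75 for KH2 (doxycycline first each time). It was detected on 3 inducible arrays and both KH2 arrays, so 1 of these values was not above background. The other 2, Wnt7a and Pde5a, were detected on both KH2 arrays and on no inducible array, so their likeness rests on values not above background and is given no rank. They were at least 2.42-fold (Wnt7a) and 1.21-fold (Pde5a) lower in the inducible lines.

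**Figure D3:**
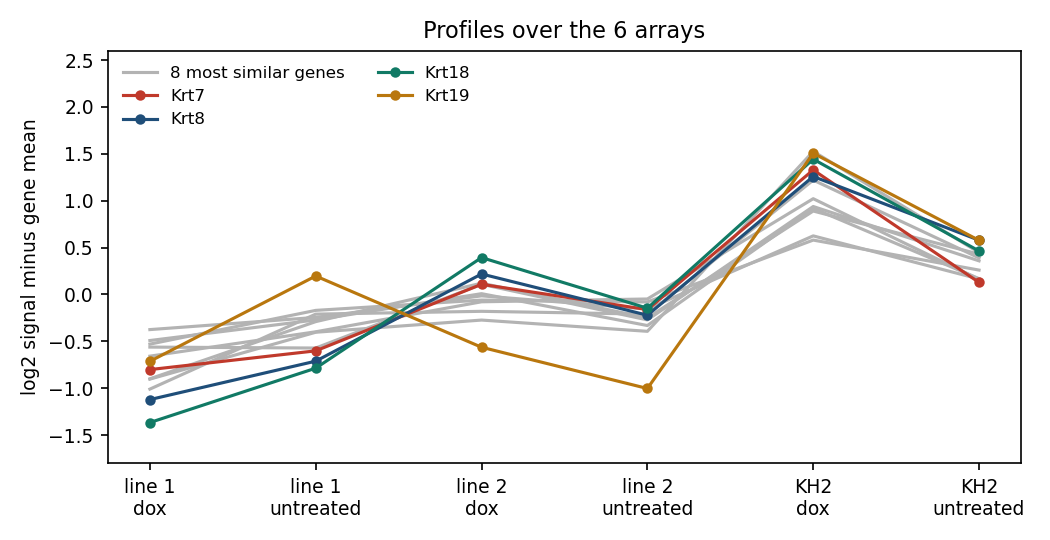
Log2 signal minus the gene's mean over the 6 arrays for the 4 keratins (coloured) and the 8 genes with the most similar profile (grey). All peak on the KH2_dox array; among the 4 keratins only Krt19 is higher in untreated line 1 (8.11) than in untreated line 2 (6.91), and Pde5a and Wnt7a lie below detection on the 4 inducible arrays.

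Of 40 other keratin genes on the array, 13 passed the filter on dim probes, 26 were detected on no array, and the difference of inducible lines minus KH2 passed for 0 of 13. Their median difference was -0.05, against 0.00 over all tested probes and -1.40 over the 4 simple epithelium keratins. Several of the 13 lay near background, where a difference is hard to read. Krt26 was detected on 1 inducible and 1 KH2 array, and Krt82 and Krt222 each on 2 inducible and 1 KH2 array. The brighter Krt10 and Krt42, detected on every array, were at -0.15 ± 0.18 and 0.26 ± 0.36. Krt14, the type I keratin of basal epidermal cells and a neighbour of Krt19 on chromosome 11, had the lowest value of these, -1.95 ± 0.35 (adjusted p = 0.366). It read 5.94 and 7.18 in line 1 and 5.41 and 6.02 in line 2, against 8.42 and 7.76 for KH2 (doxycycline first each time). Krt14 was detected on 3 inducible arrays and both KH2 arrays, so part of its difference rests on a value not above background. Its doxycycline difference was -1.24 in line 1, -0.61 in line 2 and 0.66 for KH2. Krt17 was at -0.52 ± 0.17 with no overlap between the inducible and KH2 arrays, Krt20 at -0.53 ± 0.35, Krt222 at -0.29 ± 0.21 and Krt12 at 0.60 ± 0.21. Krt20 was detected on 2 inducible and 2 KH2 arrays, and Krt12 on 3 inducible and 1 KH2 array. All inducible arrays lay below both KH2 arrays for 2 of these 13 genes, against 11.1% of all tested probes. Krt16 was detected on 2 inducible arrays and on no KH2 array, and Krt15, which lies beside Krt19, differed by 0.00 ± 0.20. Krt15 was detected on only 1 inducible and 1 KH2 array, so that value compares signals near background.

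**Figure D4:**
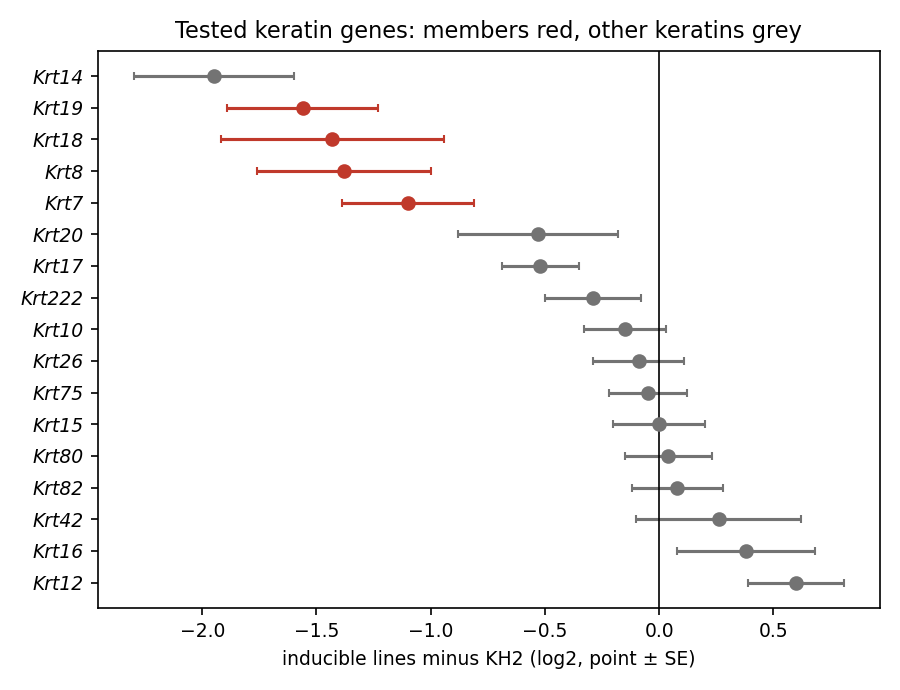
Inducible lines minus KH2 (log2 signal, point ± SE from limma) for the 4 simple epithelium keratins (red) and the 13 other tested keratins (grey). The members lie between -1.56 and -1.10, Krt14 is lower at -1.95, and the remaining 12 lie between -0.53 and 0.60.

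Genes next to the keratins were looked at after the keratin values were known. Krt80, a type II keratin gene next to Krt7, was at 0.04 ± 0.19 between the inducible lines and KH2. Next to Krt18, Eif4b, a translation initiation factor gene, was at -0.04 ± 0.17, and Tns2, which encodes a tensin of focal adhesions, -0.22 ± 0.20. On the Krt7 side, Atg101 was at -0.35 ± 0.17. Near Krt19, Krt14, detected on 3 inducible and both KH2 arrays, was at -1.95 ± 0.35, while Krt16 (0.38 ± 0.30) and Krt15 (0.00 ± 0.20) lay near background. None of these neighbours passed the test.

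Among other intermediate filament genes 9 of 10 tested had a lower average in the inducible lines (median -0.25) and 0 of 10 passed. The neuronal filament gene Prph was at -0.89 ± 0.47, Nes, which encodes nestin, at -0.86 ± 0.28 and Nefh at -0.83 ± 0.35, while Synm, which encodes synemin, was at 0.70 ± 0.29. Vim, the vimentin gene of mesenchymal cells, differed by -0.09 ± 0.36. The doxycycline difference of Nefh was -0.80 in line 1, -0.70 in line 2 and -0.05 for KH2, and that of Vim 0.31, 0.42 and 0.17.

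Keratin filaments anchor at desmosomes through plakins and plakophilins. Of 8 tested genes of these structures 6 had a lower average in the inducible lines (median -0.16) and 0 passed, while Jup, Pkp1 and the desmocollin genes were among 8 detected on no array. Fam83h, whose protein is linked to keratin filament organisation, was at -0.75 ± 0.16 with no overlap between the groups. Every inducible array lay below both KH2 arrays for 2 of these 8 genes, against 11.1% of all tested probes. Ppl, the periplakin gene, was at -0.63 ± 0.21, the plakophilin gene Pkp2 at -0.48 ± 0.20 and Pkp3 at -0.17 ± 0.19. The doxycycline difference of Ppl was -0.85 in line 1, -0.24 in line 2 and -0.27 for KH2, and that of Plec, the plectin gene, 0.50, 0.29 and -0.05.

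Of 19 tested genes of the epithelial surface and its junctions, 14 had a lower average in the inducible lines (median -0.23) and 0 passed. The claudin genes Cldn7 (-0.81 ± 0.18) and Cldn6 (-0.63 ± 0.20) did not overlap between the groups, whereas Marveld3 (-0.83 ± 0.34) and the clathrin adaptor gene Ap1m2 (-0.50 ± 0.17) did. Marveld3 was detected on 3 inducible arrays and both KH2 arrays. In this list 3 of 19 genes had every inducible array below both KH2 arrays, against 11.1% of all tested probes. The median difference with doxycycline over this list was -0.03 in line 1, 0.08 in line 2 and 0.32 for KH2, against -0.01, -0.01 and 0.03 over all tested probes. Spint2, which encodes a protease inhibitor, had a difference of 0.76 in line 1, 0.25 in line 2 and 0.53 for KH2, and Marveld3 of -0.54, -0.47 and -0.44.

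Regulators of trophoblast and surface ectoderm had a median of -0.03 over 12 tested genes, of which 6 had a lower and 6 a higher average and 0 passed. Id2 was at -0.75 ± 0.30, Ascl2 at -0.56 ± 0.23, Gata2 at -0.45 ± 0.31 and Tead4 at 0.41 ± 0.30. Ascl2 was detected on both KH2 arrays but on only 1 inducible array, so its difference rests largely on values not above background. Gata2 was detected on 3 inducible arrays. Tead4, a transcription factor of trophectoderm, had a doxycycline difference of 1.48 in line 1, 0.58 in line 2 and 0.73 for KH2, and Klf5 of 0.83, 0.25 and -0.20. Gata3, Eomes, Elf5, Hand1 and Trp63 were detected on no array. In the doxycycline comparisons limma also called 0 genes of any list described here.

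Markers of other cell types are given beside the keratin difference, and limma called 0 genes of each list. Of 7 placental trophoblast markers on the array 2 were tested, Ascl2 and Peg10 (median -0.38), and 4, Plac1, Psg17, Tpbpa and Hand1, were detected nowhere. The median includes Ascl2, which was detected on both KH2 arrays but on only 1 inducible array. The summed signal over all 7 markers was 257 to 292 on the inducible arrays and 321 to 323 on the KH2 arrays. This sum and those of the lists that follow take in genes detected on no array, whose values lie at background. Of 10 mesoderm and primitive streak markers 3 were tested (median -0.95, or -0.56 with undetected genes at their bound) and 7 were detected on no array. Their sum was 345 to 362 on the inducible arrays and 482 to 512 on the KH2 arrays. Fgf8 and Gsc, genes of the primitive streak, were detected on both KH2 arrays and on no inducible array, at least 2.58-fold and 1.47-fold lower in the inducible lines. Both passed the filter on dim probes only through the KH2 arrays, and the median and sum of this list include them.

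Of 10 fibroblast markers 4 were tested (median -0.27) and 6, among them Col1a2, Col3a1 and Dcn, were detected nowhere. Their sum was 505 to 648 on the inducible arrays and 671 to 692 on the KH2 arrays, and Twist2, a mesenchymal transcription factor gene, was at -1.31 ± 0.26. The other tested fibroblast markers differed less: Col1a1 was at -0.41 ± 0.17, Thy1 at -0.13 ± 0.29 and Lox at -0.10 ± 0.22. Twist2 and Col1a1 were each detected on 3 inducible arrays and both KH2 arrays, so their differences rest partly on a value not above background. Of 14 endoderm markers 9 were tested (median 0.04), and Foxa2, Afp and Ttr were detected nowhere. The endoderm sums overlapped, with 3505 to 12434 on the inducible arrays and 4562 to 5545 on the KH2 arrays. Gata6, the primitive endoderm factor, had a doxycycline difference of 2.18 in line 1, 1.94 in line 2 and 0.29 for KH2. The keratin differences were negative in line 1, where the other tested endoderm markers went both ways. Lama1 (1.88), Col4a1 (1.66), Pdgfra (1.10), Sparc (0.78) and Hnf4a (0.09) were higher there. Amn (-1.04), Gata4 (-0.20) and Dab2 (-0.07) were lower. Pdgfra, Hnf4a and Gata4 were not detected on every array. The embryonic stem cell genes had a median of 0.10 between the inducible lines and KH2, with 4 lower and 6 higher on average. The part of any of these cell types in the keratin values was not tested.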

How the data were processed

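The deposited raw table holds 4 columns per array: average bead signal as an unnormalised intensity, its standard error over beads, a bead count and a detection p-value, per the file headers. The authors' second deposited table holds intensity values background-subtracted and normalised in BeadStudio (named in the submitters' processing notes, with the method and version not given in the sources used here). The arrays are Illumina MouseRef-8 bead arrays per the labels. No genome build is named.

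Raw signal was background-corrected and quantile-normalised to log2 values with neqc (limma 3.58.1, R 4.3.3, offset 16). Probes detected (p under 0.05) on 2 or more arrays, 12373 in all, entered lmFit and eBayes, two-sided, with Benjamini-Hochberg adjustment at 0.05. The 6 comparisons used 4 group means (2 residual degrees of freedom; KH2 has 1 array per group and is assumed to vary like the inducible lines), except that all doxycycline against all untreated arrays used 2 means (4 residual degrees of freedom). The procedure was tested on simulated data. A gene with several probes was read by its brightest tested one. A gene with no detected array in a group has a bound set by the lowest detected signal of each array. Symbols came from the platform annotation, checked by Entrez number (16 numbers unmatched, 1719 probes without a symbol).

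The keratins, gene lists and rules were chosen with earlier results of these data known. Genes of a list were named by the largest differences of inducible lines minus KH2 (up to 6 other keratins, 4 of each other list) and of the doxycycline comparison (up to 2). The genes most like the keratins were the 8 with the highest Pearson r. Motifs, neighbours and bead errors were added after the keratin values had been seen. The promoter window was extended by 20 bases past the start after a first search of the 250 upstream bases, which held no TATA match in Krt8, because the match crosses into those 20 bases. Alternatives covered background correction, offset, scaling, the authors' values, the filter, moderation, line means, line as a block and leaving out each array. The labels name the line of each array, which pairs the arrays of a line. Over all tested probes, the deviation of a line's doxycycline array from the mean of the 3 doxycycline arrays correlated with that of its untreated array from the mean of the 3 untreated arrays, at 0.404 (line 1), 0.553 (line 2) and 0.412 (KH2).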

Additional observations from a re-analysis of the deposited data

Results flagged for a closer look

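The difference between doxycycline and untreated cells in line 1 had the opposite sign to that in both line 2 and KH2 for each of the 4 keratins. The line 1 values were -0.19 for Krt7, -0.41 for Krt8, -0.58 for Krt18 and -0.91 for Krt19. Each line has 1 array pair, so the difference between line 1 and the other lines was not tested, and the 4 genes were read on the same arrays. Under no background correction, a larger offset, median scaling and the authors' values the signs were the same, with Krt19 in line 1 at -0.65 to -0.90 and Krt7 at -0.11 to -0.18.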

How the results depend on the processing

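Many of the alternative values counted here repeat the main estimate by construction. A changed filter or moderation, gene averaging, line means, line as a block, or leaving out an array outside the comparison cannot move it. For the 4 keratins, inducible lines minus KH2 stayed negative in all 60 values from the alternatives, as did the 52 values each of Sox17_untreated minus KH2_untreated, Sox17_dox minus KH2_dox and the response of the inducible lines minus KH2 (Krt8 reaching 0 within rounding). The first ran from -1.70 to -0.50 for Krt7, -1.72 to -1.03 for Krt8, -1.92 to -0.94 for Krt18 and -2.03 to -1.09 for Krt19 when 1 array was left out, and the number of keratins called from 0 to 1. The count over all probes there, 1 in the main setting, was 0 with no background correction, 0 with an offset of 50, 0 in the authors' values, 0 without a filter, 0 with detection on all 6 arrays, and 0 to 33 with 1 array left out. With line as a replicate block, 1 probe was called for Sox17_dox minus Sox17_untreated in place of 0. No keratin was, and the block changed no other call where it was run. That comparison has no settled sign for the keratins: leaving out 1 array gave -0.41 to 0.49 for Krt7, -0.66 to 0.69 for Krt8, -0.91 to 0.86 for Krt18 and -0.83 to 0.36 for Krt19, and the authors' values gave 0.01 for Krt18. For all doxycycline against all untreated arrays the ranges were -0.13 to 0.93 for Krt7, -0.33 to 0.86 for Krt8, -0.33 to 1.07 for Krt18 and -0.56 to 0.55 for Krt19. Averaging a gene's probes changed nothing for the keratins, which have 1 probe each. With 3 cell lines and 1 array per line and condition, differences between lines and the inducible construct cannot be told apart, and neither can doxycycline and variation between cultures within a line. Trend and robust moderation gave the same counts over all probes in the 6 comparisons.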
